A study of Mus musculus with 6 samples.

Results

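The 45 genes described here encode interleukins, colony-stimulating factors (CSFs), their receptors, and the Janus kinase (JAK), signal transducer and activator of transcription (STAT), suppressor of cytokine signalling (SOCS) and protein inhibitor of activated STAT (PIAS) families. They were chosen by name alone from a table of 8191 genes: symbols that begin with Il and a digit, Csf (without Csf3r), Ifnar, Ifngr, Jak and a digit, Stat and a digit, Socs, Pias or Cish. Of them, 11 are ligands or soluble binding proteins, 22 are receptor chains, 3 are a kinase and STATs, and 9 are inhibitors. Il6, Il1b and Stat3 were not analysed here.

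The study asked how tumour necrosis factor receptor 2 (TNFR2) acts on myeloid-derived suppressor cells (MDSCs) during ageing. Splenic MDSCs came, without culture or treatment, from mice that were WT, Tnfr1-/- or Tnfr2-/-, all on a BALB/c background and, in the study's use of old, 18 to 24 months of age. The alleles are knockouts of the mouse and not of a cell type. According to the labels the cells were sorted, and the study's methods name an MDSC isolation kit. MDSCs of 5 mice were pooled in each of 2 independent experiments, and each of the 3 genotypes has 2 samples. Values are FPKM (fragment counts divided by transcript length and by sequencing depth), so levels can be compared between genes.

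Cytokines of these families bind paired receptor chains on the cell surface. Many of the chains carry a JAK, which phosphorylates a STAT, and the STAT then enters the nucleus and turns on target genes that include Cish and the Socs genes. These inhibitors close the loop on the receptor. Granulocyte-macrophage CSF (GM-CSF), macrophage CSF and interleukin-6 are known to drive the expansion of myeloid cells, and the interleukin-1 family carries inflammatory signals through receptors of another kind, which use no JAK.

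The table held only genes that differ between genotypes: the one-way ANOVA p recomputed from the 6 values was at most 0.05 for all 8191 genes. The genes summed to 344714 to 346870 FPKM in WT, and in Tnfr1-/- and Tnfr2-/- to 133604 to 134343 and 148956 to 155248 FPKM, and the numbers have at most 10 digits in WT against 7 in the knockouts, so genotype and the way the values were made cannot be told apart. Tnfrsf1b, the gene targeted in Tnfr2-/-, was at 112 and 115 FPKM in WT, 47.8 and 69.6 FPKM in Tnfr1-/-, and 11.3 and 14.3 FPKM in Tnfr2-/-. Tnfrsf1a was not analysed here. Cell type markers could be followed only where they are in the table, and each of these had to differ between genotypes to be there. Their sizes and directions are given here, and the markers missing from the table were not analysed. The 3 listed granulocyte markers of 12 (Retnlg, Mmp9 and Csf3r) summed to 13.7 to 15.4 FPKM in WT, and in Tnfr1-/- and Tnfr2-/- to 2732 to 3070 and 1522 to 2450 FPKM. The 3 listed monocyte markers of 6 summed to 43.2 to 47.8, 222 to 256 and 375 to 469 FPKM. Among them Ly6c1 was near 0 in WT, at 0.159 and 0.0638 FPKM. Ccr2 was at 15.0 and 14.9 FPKM and Cd14 at 32.6 and 28.2 FPKM in WT. The study defined the cells by the proteins Gr1 (Ly6G and Ly6C) and CD11b, and Ly6g, Ly6c2 and Itgam were not analysed here. The 9 listed macrophage markers of 10 summed to 2951 to 3115 FPKM in WT, and in Tnfr1-/- and Tnfr2-/- to 205 to 235 and 266 to 267 FPKM. The part of these marker differences in the results against WT was not tested, and in such bulk samples fewer cells of a type and less RNA per cell cannot be told apart.

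For Tnfr2-/- against WT, 33 of the 45 cytokine pathway genes were past the threshold (limma adjusted p under 0.05 and a fold change over 1.5), 11 of them higher and 22 lower. Of all genes tested, 70.7% passed, 13.6% higher and 57.1% lower, against 73.3% of the 45 genes. In Tnfr1-/- against WT, 37 passed, 14 higher and 23 lower, or 82.2%, against 74.8% of the whole table (14.1% higher and 60.7% lower). The total shares lie near the background. Higher calls were a larger part of the 45 genes than of the whole table, and lower calls a smaller part. No test of the 45 genes as a set was run, so none of this is a result about the set. The median log2 change of the 45 genes was -0.55 in Tnfr2-/- and -0.61 in Tnfr1-/-, and that of all 8191 genes was -0.74 and -0.83. With median-ratio size factors, which align the samples by the median of their gene ratios and not by summed FPKM, the median of all genes was -0.032 and -0.033. On that scale 15 of the 45 genes were higher and 12 lower in Tnfr2-/- (21.8% and 21.0% in the whole table), and 17 were higher and 11 lower in Tnfr1-/- (23.3% and 22.1%). In either direction 60.0% of the 45 genes passed in Tnfr2-/- and 62.2% in Tnfr1-/-, against 42.8% and 45.4% of the whole table.

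Both knockouts share their WT samples, so their agreement against WT is not independent. Higher in both were 11 genes, namely Ifnar2, Ifngr1, Il16, Il17ra, Il18bp, Il1f9, Il6ra, Jak3, Pias1, Pias3 and Stat5b. All 11 passed as higher in both under each of 3 scalings (as deposited, median-ratio, quantile). So did all 1013 genes of the whole table (12.4%) that were higher in both as deposited. The median-ratio size factors were 1.66 and 1.67 in WT and 0.74 to 0.881 in the knockouts. Dividing by them raises the knockouts against WT, so keeping a higher call sets no gene apart. Lower in both were 20 genes, against 55.4% of the whole table. Under each of the 3 scalings 1473 of all 8191 genes passed as lower in both, and 11 of the 20 did so: Cish, Csf2rb2, Il11ra1, Il18, Il1a, Il1rl2, Il20rb, Il21r, Il2ra, Il3ra and Socs2. The other 9 (Csf1r, Csf2, Csf2ra, Csf2rb, Il1r1, Il1rn, Pias4, Socs1 and Socs6) lost the call in at least 1 comparison when the samples were rescaled. Only Il7r passed in opposite directions.

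**Figure D1:**
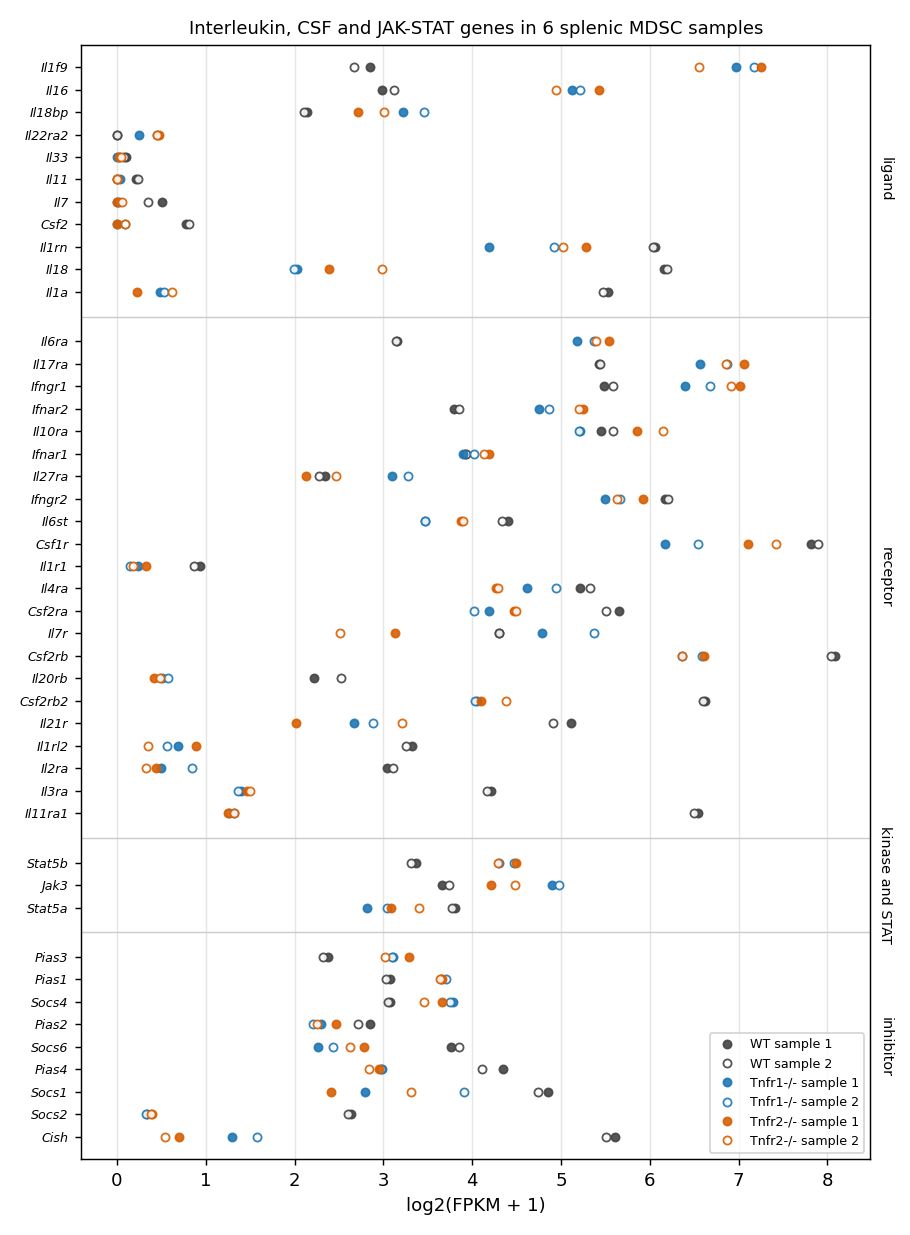
Level of each of the 45 genes in the 6 samples, as log2(FPKM + 1), with genes grouped by role; filled and open circles are samples 1 and 2 of WT (grey), Tnfr1-/- (blue) and Tnfr2-/- (orange). The WT circles of Cish, Il11ra1, Il1a and Il18 lie far to the right of the knockouts and those of Il1f9, Il16 and Il6ra far to the left.

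The order of the levels differed between genotypes. In WT the highest of the 45 genes were Csf2rb, Csf1r, Csf2rb2, Il11ra1 and Ifngr2. In Tnfr1-/- they were Il1f9, Il17ra, Ifngr1, Csf2rb and Csf1r, and in Tnfr2-/- Csf1r, Ifngr1, Il17ra, Il1f9 and Csf2rb. Il1f9 moved from rank 34 in WT to rank 1 in Tnfr1-/- and 4 in Tnfr2-/-, while Il11ra1 moved from rank 4 to ranks 34 and 33 and Cish from rank 9 to ranks 32 and 35. Neighbours in these orders could overlap, as Ifngr1 (128 and 119.8 FPKM), Il17ra (132 and 115 FPKM) and Il1f9 (152 and 93.2 FPKM) did in Tnfr2-/-, where Csf1r was at 137 and 171 FPKM. The SD between replicate samples on the log2 scale, pooled over the 45 genes, was 0.070 in WT, 0.19 in Tnfr1-/- and 0.24 in Tnfr2-/-.

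Among the ligands, the interleukin-1 family members went in opposite directions. Il1f9 encodes interleukin-36 gamma, an inflammatory cytokine. It was at 6.18 and 5.34 FPKM in WT, 124 and 143 FPKM in Tnfr1-/-, and 152 and 93.2 FPKM in Tnfr2-/-. All 4 knockout samples lay far above WT and the knockouts overlapped. Its log2 change was 4.15 (SE 0.25, adjusted p = 0.000110) in Tnfr2-/- and 4.31 (SE 0.25, adjusted p = 8.69e-05) in Tnfr1-/-, the largest rises among the 45 genes. Il1a encodes interleukin-1 alpha, a ligand of the interleukin-1 receptor. It was at 45.2 and 43.5 FPKM in WT, 0.400 and 0.440 FPKM in Tnfr1-/-, and 0.168 and 0.541 FPKM in Tnfr2-/-. WT was high and the knockouts were under 1 FPKM, with log2 changes of -5.08 (SE 0.15, adjusted p = 1.77e-05) in Tnfr2-/- and -5.0 in Tnfr1-/-.

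Il18 encodes interleukin-18, which is known to induce interferon gamma, and Il18bp encodes the soluble protein that captures it. Il18 was at 70.7 and 72.3 FPKM in WT, 3.07 and 2.99 FPKM in Tnfr1-/-, and 4.24 and 6.89 FPKM in Tnfr2-/-, a log2 change of -3.49 (SE 0.20, adjusted p = 0.000101) in Tnfr2-/- and -4.17 (SE 0.20, adjusted p = 5.42e-05) in Tnfr1-/-. Il18bp was at 3.40 and 3.30 FPKM in WT, 8.33 and 9.97 FPKM in Tnfr1-/-, and 5.58 and 7.03 FPKM in Tnfr2-/-, with log2 changes of 0.74 in Tnfr2-/- and 1.22 in Tnfr1-/-. Thus the RNA of the cytokine fell and that of its captor rose in both knockouts, and no sample of a knockout overlapped WT for either gene.

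Il1rn, which encodes the antagonist of the interleukin-1 receptor, was at 65.4 and 64.5 FPKM in WT, 17.3 and 29.2 FPKM in Tnfr1-/-, and 37.9 and 31.5 FPKM in Tnfr2-/-. Its log2 change as deposited was -0.89 (SE 0.25, adjusted p = 0.0188) in Tnfr2-/-, but 0.082 with median-ratio size factors, and -1.49 (adjusted p = 0.00284) in Tnfr1-/-, or -0.37 (adjusted p = 0.292) after rescaling. Its fall therefore holds only on the deposited scale, and in Tnfr2-/- it also lost the call without WT sample 1 (adjusted p = 0.0881), WT sample 2 (adjusted p = 0.0838) or Tnfr2-/- sample 2 (adjusted p = 0.0892). Il16, which encodes a chemoattractant for CD4+ cells, was at 6.94 and 7.72 FPKM in WT, 33.9 and 36.2 FPKM in Tnfr1-/-, and 42.0 and 29.7 FPKM in Tnfr2-/-, with log2 changes of 2.13 and 2.12 in Tnfr2-/- and Tnfr1-/-. Of the 50-base windows of its transcripts, 15.5% also occur in Stard5 or 2310044K18Rik, so the value is uncertain to that extent.

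The other ligands were near the floor. Csf2, which encodes GM-CSF, was at 0.714 and 0.757 FPKM in WT, and at 0 and 0.0634 FPKM in Tnfr1-/- and 0 and 0.0668 FPKM in Tnfr2-/-. It passed as lower in both knockouts as deposited but in neither after median-ratio scaling, and no fold is given against samples listed at 0. Il11, Il33 and Il7 were under 0.5 FPKM in every sample, and Il22ra2, a soluble decoy for interleukin-22, was listed at 0 in both WT samples and at 0.185 to 0.384 FPKM in the knockouts. None of these 4 passed in any comparison, and the added 1 FPKM compresses changes of genes this low.

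Among the receptors, the chains that bind ligand for interleukin-6, interleukin-17 and both kinds of interferon were higher in both knockouts. Il6ra, the ligand-binding chain for interleukin-6, was at 7.90 and 7.86 FPKM in WT, 35.3 and 40.5 FPKM in Tnfr1-/-, and 45.6 and 41.2 FPKM in Tnfr2-/-. Every knockout sample was above WT, with log2 changes of 2.32 (SE 0.095, adjusted p = 4.11e-05) in Tnfr2-/- and 2.13 (adjusted p = 4.58e-05) in Tnfr1-/-. Its partner Il6st encodes gp130, the signalling chain shared by the interleukin-6 family. Il6st was at 20.2 and 19.2 FPKM in WT, 10.1 FPKM in both Tnfr1-/- samples, and 13.7 and 13.9 FPKM in Tnfr2-/-. WT was highest here, with a log2 change of -0.90 (SE 0.067, adjusted p = 0.000191) in Tnfr1-/-, but 0.17 with median-ratio size factors. In Tnfr2-/- the change of -0.48 (0.45 with median-ratio size factors) did not reach the fold threshold.

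Ifnar2 and Ifnar1 encode the chains of the type I interferon receptor, and Ifngr1 and Ifngr2 those of the interferon gamma receptor. Ifnar2 was at 12.9 and 13.4 FPKM in WT, 26.0 and 28.1 FPKM in Tnfr1-/-, and 37.1 and 35.7 FPKM in Tnfr2-/-, with log2 changes of 1.40 in Tnfr2-/- (SE 0.071, adjusted p = 7.35e-05) and 0.99 in Tnfr1-/-. Ifnar1 was between 13.9 and 17.3 FPKM in all 6 samples and passed in neither knockout on the deposited scale, although its change of 0.24 in Tnfr2-/- had an adjusted p of 0.0264 by limma and missed only the fold threshold. With median-ratio size factors it passed as higher in both, at 1.16 and 1.09. Ifngr1 was at 43.6 and 47.1 FPKM in WT, 83.4 and 101 FPKM in Tnfr1-/-, and 128 and 119.8 FPKM in Tnfr2-/-, with log2 changes of 1.43 in Tnfr2-/- and 1.0 in Tnfr1-/-. Ifngr2 was at 71.1 and 72.6 FPKM in WT, 44.0 and 49.9 FPKM in Tnfr1-/-, and 59.6 and 48.4 FPKM in Tnfr2-/-. Its log2 change in Tnfr1-/- was -0.61 (adjusted p = 0.00592) as deposited and 0.52 with median-ratio size factors, so its direction depends on the scale. Without Tnfr1-/- sample 1 it was -0.52, under the fold threshold. Il17ra, the chain shared by receptors of the interleukin-17 family, was at 42.0 and 42.4 FPKM in WT, 93.7 and 116 FPKM in Tnfr1-/-, and 132 and 115 FPKM in Tnfr2-/-, with log2 changes of 1.29 and 1.52 in Tnfr1-/- and Tnfr2-/-.

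The GM-CSF and interleukin-3 receptor genes were lower in both knockouts. Csf2rb encodes the beta chain shared by the GM-CSF, interleukin-3 and interleukin-5 receptors, Csf2rb2 the mouse beta chain specific to interleukin-3, and Csf2ra and Il3ra the chains that recognise GM-CSF and interleukin-3. Csf2rb2 was at 97.3 and 96.0 FPKM in WT, 15.6 and 15.4 FPKM in Tnfr1-/-, and 16.1 and 19.9 FPKM in Tnfr2-/-, with log2 changes of -2.37 (SE 0.11, adjusted p = 5.52e-05) in Tnfr2-/- and -2.57 (adjusted p = 3.86e-05) in Tnfr1-/-. Il3ra was at 17.5 and 16.9 FPKM in WT, 1.63 and 1.57 FPKM in Tnfr1-/-, and 1.76 and 1.82 FPKM in Tnfr2-/-, with log2 changes of -2.71 in Tnfr2-/- and -2.81 in Tnfr1-/-. Both genes also passed as lower after rescaling. Csf2rb was at 269.7 and 263 FPKM in WT, 81.5 and 94.9 FPKM in Tnfr1-/-, and 96.8 and 81.0 FPKM in Tnfr2-/-. Csf2ra was at 49.2 and 44.5 FPKM in WT, 17.2 and 15.2 FPKM in Tnfr1-/-, and 21.1 and 21.6 FPKM in Tnfr2-/-. All knockout samples were below WT for both genes, with log2 changes of -1.58 and -1.59 for Csf2rb and -1.10 and -1.47 for Csf2ra in Tnfr2-/- and Tnfr1-/-. After median-ratio scaling Csf2rb kept its call in Tnfr2-/- (-0.59, adjusted p = 0.0314) and lost it in Tnfr1-/- (-0.45, adjusted p = 0.0668), and Csf2ra lost it in both. Csf2rb2 and Csf2rb lie 20.0 kb apart on chromosome 15 and share sequence: 18.9% and 12.3% of their 50-base windows also occur in another gene, so reads could be split between them.

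Csf1r, the receptor of macrophage CSF and a gene of the macrophage lineage, was at 225 and 237 FPKM in WT, 71.3 and 92.6 FPKM in Tnfr1-/-, and 137 and 171 FPKM in Tnfr2-/-. The 3 genotypes did not overlap, with WT highest and Tnfr1-/- lowest. Its log2 change was -0.59 (SE 0.17, adjusted p = 0.0222) in Tnfr2-/- and -1.5 (SE 0.17, adjusted p = 0.000787) in Tnfr1-/-, but with median-ratio size factors it was 0.40 in Tnfr2-/- and -0.36 in Tnfr1-/-, neither past the threshold. In Tnfr2-/- its call was also lost without WT sample 1 (adjusted p = 0.0826), without WT sample 2 (adjusted p = 0.110) or without Tnfr2-/- sample 1 (adjusted p = 0.0850). All 9 listed macrophage markers passed as lower in both knockouts on the deposited scale, where 55.4% of the whole table did. After median-ratio scaling Spic passed in neither knockout (0.25 in Tnfr2-/- and 0.077 in Tnfr1-/-). Vcam1 lost its call in Tnfr1-/- (-0.96, limma adjusted p = 0.0640), and the other listed macrophage markers still passed as lower in both. The part of these markers in the Csf1r change was not tested. Of its windows 14.3% also occur in Hmgxb3.

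In Tnfr2-/- the largest falls among the receptors were those of Il11ra1, Il3ra, Il2ra and Il1rl2. Il11ra1, the interleukin-11 binding chain, was at 91.9 and 89.4 FPKM in WT, 1.5 and 1.39 FPKM in Tnfr1-/-, and 1.38 and 1.5 FPKM in Tnfr2-/-, a log2 change of -5.23 in each knockout (SE 0.081, adjusted p = 5.47e-06 in Tnfr2-/-). Its transcripts share 46.3% of their windows with Gm13305 and Il11ra2, so how reads were assigned among these copies bears on the value, which is uncertain. Il2ra, the high-affinity chain for interleukin-2, was at 7.23 and 7.62 FPKM in WT, 0.412 and 0.791 FPKM in Tnfr1-/-, and 0.358 and 0.255 FPKM in Tnfr2-/-, with log2 changes of -2.69 in Tnfr2-/- and -2.40 in Tnfr1-/-. Il1rl2, the receptor of interleukin-36, was at 9.04 and 8.56 FPKM in WT, 0.605 and 0.482 FPKM in Tnfr1-/-, and 0.853 and 0.272 FPKM in Tnfr2-/-. Its log2 change was -2.67 in each knockout, opposite in direction to its ligand Il1f9. Il21r, the receptor of interleukin-21, was at 33.5 and 29.1 FPKM in WT, and at 5.36 and 6.38 FPKM in Tnfr1-/- and 3.05 and 8.22 FPKM in Tnfr2-/-. Il20rb, a chain of the interleukin-20 receptors, and Il1r1, the interleukin-1 receptor, were also lower in both. Il20rb was at 3.67 and 4.77 FPKM in WT and at 0.338 to 0.486 FPKM in the knockouts. Il1r1 was under 1 FPKM in every sample, at 0.908 and 0.821 FPKM in WT and 0.108 to 0.251 FPKM in the knockouts. Of these genes only Il1r1 lost its call after rescaling. The basophil and mast cell markers, all 5 of 5 listed, summed to 18.5 to 27.4 FPKM in WT, and in Tnfr1-/- and Tnfr2-/- to 3.74 to 3.89 and 0.914 to 1.28 FPKM. The 5 listed dendritic cell markers of 7 summed to 238 to 245 FPKM in WT, and in Tnfr1-/- and Tnfr2-/- to 30.3 to 30.5 and 25.7 to 29.6 FPKM. Itgax made up most of the WT sum (219 and 216 FPKM), while Flt3 was higher in both knockouts (0.156 and 0.260 FPKM in WT, 1.21 to 2.34 FPKM in the knockouts) and Ccr7 passed as lower only in Tnfr2-/-. Their part in the receptor falls was not tested.

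**Figure D2:**
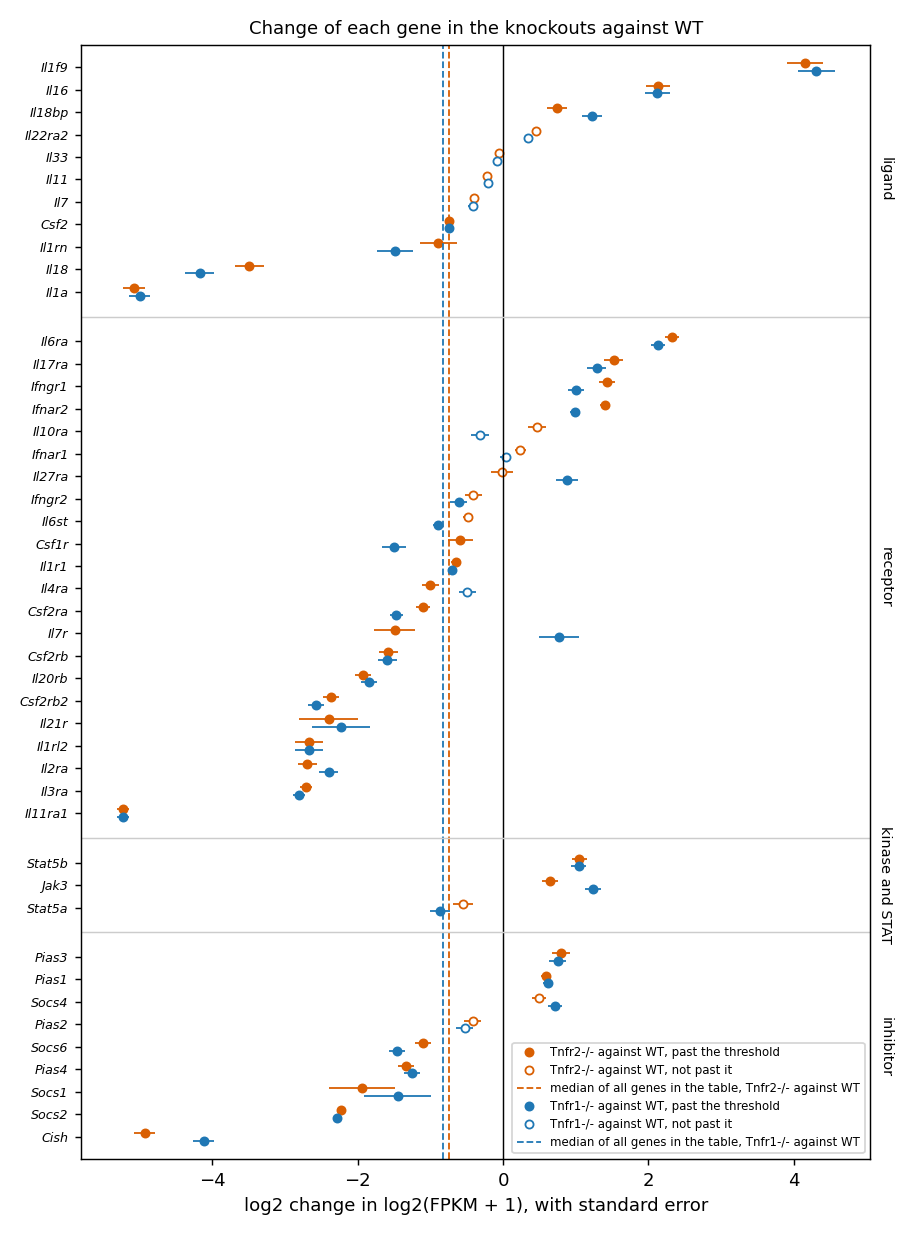
Log2 change in log2(FPKM + 1) of each of the 45 genes in Tnfr2-/- (orange) and Tnfr1-/- (blue) against WT, with standard errors; filled circles passed the threshold, open circles did not, and dashed lines mark the medians of all 8191 genes (-0.74 and -0.83). The circles of a gene lie farthest apart for Il7r, followed by Csf1r, Il27ra and Cish.

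The STAT5 genes diverged from each other. Stat5b was at 9.31 and 8.95 FPKM in WT, 18.8 and 21.1 FPKM in Tnfr1-/-, and 21.5 and 18.6 FPKM in Tnfr2-/-, with log2 changes of 1.05 (SE 0.10, adjusted p = 0.000518) in Tnfr2-/- and 1.04 in Tnfr1-/-. Stat5a was at 13.0 and 12.7 FPKM in WT, 6.03 and 7.20 FPKM in Tnfr1-/-, and 7.49 and 9.60 FPKM in Tnfr2-/-. It fell in Tnfr1-/- (-0.87, adjusted p = 0.00264), but was at 0.16 after median-ratio scaling, and its change of -0.55 in Tnfr2-/- (0.36 after that scaling) did not reach the fold threshold. The genes are close relatives and neighbours, 8.63 kb apart on chromosome 11, and 11.0% of the Stat5b windows and 8.52% of the Stat5a windows occur in another gene. Jak3, the kinase that works with the common gamma chain, was at 11.6 and 12.4 FPKM in WT, 28.8 and 30.6 FPKM in Tnfr1-/-, and 17.6 and 21.3 FPKM in Tnfr2-/-. The 3 genotypes did not overlap, with log2 changes of 0.65 (SE 0.11, adjusted p = 0.00324) in Tnfr2-/- and 1.24 (SE 0.11, adjusted p = 0.000329) in Tnfr1-/-. Without Tnfr2-/- sample 2 the change in Tnfr2-/- was 0.52, under the fold threshold.

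Among the inhibitors, Cish, a STAT5 target gene that damps cytokine receptors, fell most. It was at 47.6 and 44.4 FPKM in WT, 1.45 and 1.99 FPKM in Tnfr1-/-, and 0.629 and 0.458 FPKM in Tnfr2-/-. WT stood far above both knockouts, and the knockouts did not overlap. Its log2 change was -4.93 (SE 0.14, adjusted p = 1.53e-05) in Tnfr2-/- and -4.12 (SE 0.14, adjusted p = 2.06e-05) in Tnfr1-/-. Socs2, another STAT5 target gene, was at 5.22 and 5.07 FPKM in WT and between 0.256 and 0.312 FPKM in the 4 knockout samples, with log2 changes of -2.23 and -2.28 in Tnfr2-/- and Tnfr1-/-. Socs1, an inhibitor of JAKs in interferon signalling, was at 28.0 and 25.7 FPKM in WT, 5.95 and 14.0 FPKM in Tnfr1-/-, and 4.32 and 8.94 FPKM in Tnfr2-/-. Its samples within a knockout differed widely, and its log2 changes of -1.94 (SE 0.46) and -1.45 (SE 0.46) lost their calls after median-ratio scaling (adjusted p = 0.109 and 0.501). Leaving out either WT sample or Tnfr2-/- sample 1 also ended the call in Tnfr2-/- (adjusted p = 0.0510 to 0.0646), and leaving out either WT sample or Tnfr1-/- sample 1 ended it in Tnfr1-/- (adjusted p = 0.102 to 0.122). Socs6 was at 12.6 and 13.4 FPKM in WT, 3.82 and 4.40 FPKM in Tnfr1-/-, and 5.87 and 5.19 FPKM in Tnfr2-/-. Its calls as lower were lost after median-ratio scaling, at -0.21 in Tnfr2-/- and -0.45 in Tnfr1-/-. Socs4 went the other way. It was at 7.40 and 7.32 FPKM in WT, at 12.8 and 12.5 FPKM in Tnfr1-/-, a log2 change of 0.71, and at 11.6 and 9.95 FPKM in Tnfr2-/-, where the change of 0.49 missed the fold threshold.

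The PIAS genes encode proteins that bind STATs and attach SUMO. Pias1 was at 7.45 and 7.15 FPKM in WT and between 11.4 and 12.0 FPKM in the knockouts, with log2 changes of 0.59 in Tnfr2-/- and 0.62 in Tnfr1-/-. In Tnfr2-/- it slipped under the fold threshold without WT sample 2 (0.57) or Tnfr2-/- sample 1 (0.58). Pias3 was at 4.2 and 4.01 FPKM in WT and between 7.09 and 8.80 FPKM in the knockouts, with log2 changes of 0.80 and 0.75. Pias4 was at 19.4 and 16.3 FPKM in WT and between 6.14 and 6.91 FPKM in the knockouts, with log2 changes of -1.34 and -1.25 that lost their calls after median-ratio scaling. Pias2 passed in neither knockout. Of the 4 genes, 2 thus rose, 1 fell on the deposited scale and 1 did not pass.

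The letters TTC and GAA with any 3 bases between them, a form that STATs are known to bind, were searched in promoter windows from 250 bases before to 50 bases after RefSeq starts on GRCm38.p6. This pattern is its own reverse complement, so a match counts for both strands. Windows were found for 34 of the 45 genes, and 6 of the 34 (17.6%) held a match, against 2582 of 27025 genes (9.55%). The 6 were Cish, Csf2rb2, Ifnar1, Ifnar2, Il1f9 and Il7r. They are printed because they include the largest rise (Il1f9), a fall shared by both knockouts (Cish) and the gene with opposite changes (Il7r). Matches are in capitals, and no binding was measured here. The Cish window held 2 matches with starts 11 bases apart, and 150 of all 32851 windows (0.457%) held at least 2. Short stretches of 30 bases are given where the match overlaps or adjoins the start, and otherwise the 250 bases upstream.
Cish, chr9:107296654-107296683, plus strand: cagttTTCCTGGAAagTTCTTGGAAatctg
Ifnar1, chr16:91485205-91485234, plus strand: gggcgTTCACGGAAggggcggggcgctgga
Csf2rb2, chr15:78305722-78305971, minus strand: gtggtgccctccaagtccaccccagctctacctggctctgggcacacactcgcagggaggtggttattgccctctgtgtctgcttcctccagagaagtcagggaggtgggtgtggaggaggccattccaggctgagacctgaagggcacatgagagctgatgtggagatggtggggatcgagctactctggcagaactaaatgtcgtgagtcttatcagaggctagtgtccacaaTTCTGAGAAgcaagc
Ifnar2, chr16:91372533-91372782, plus strand: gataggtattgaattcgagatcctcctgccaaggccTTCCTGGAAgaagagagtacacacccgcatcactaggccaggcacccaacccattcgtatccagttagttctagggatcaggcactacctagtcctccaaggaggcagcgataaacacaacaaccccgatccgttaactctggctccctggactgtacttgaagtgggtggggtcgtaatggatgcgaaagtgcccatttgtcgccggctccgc
Il1f9, chr2:24186226-24186475, plus strand: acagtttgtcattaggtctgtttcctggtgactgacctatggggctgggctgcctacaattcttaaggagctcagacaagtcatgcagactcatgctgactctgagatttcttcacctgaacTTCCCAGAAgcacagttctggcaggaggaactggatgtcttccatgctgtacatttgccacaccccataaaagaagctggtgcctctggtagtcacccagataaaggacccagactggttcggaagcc
Il7r, chr15:9529877-9530126, minus strand: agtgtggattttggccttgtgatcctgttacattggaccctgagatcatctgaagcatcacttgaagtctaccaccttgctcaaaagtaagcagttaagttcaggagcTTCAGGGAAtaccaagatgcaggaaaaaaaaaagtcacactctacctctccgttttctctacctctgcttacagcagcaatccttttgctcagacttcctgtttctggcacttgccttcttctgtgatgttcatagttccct

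These 6 genes did not move as a group: Ifnar2 and Il1f9 rose in both knockouts, Cish and Csf2rb2 fell in both, Il7r went in opposite directions, and Ifnar1 passed in neither on the deposited scale.

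A ratio of FPKM within a sample stays the same when all genes of the sample are multiplied by 1 factor, as median-ratio scaling does, but not under quantile normalization. The ratio of Il6ra to Il6st was 0.391 and 0.410 in WT, 3.50 and 4.0 in Tnfr1-/-, and 3.34 and 2.97 in Tnfr2-/-. The ratio of Ifnar2 to Ifnar1 was 0.918 and 0.940 in WT, 1.87 and 1.85 in Tnfr1-/-, and 2.14 and 2.16 in Tnfr2-/-. The ratio of Ifngr1 to Ifngr2 was 0.614 and 0.649 in WT, 1.89 and 2.02 in Tnfr1-/-, and 2.14 and 2.47 in Tnfr2-/-. In all 3 pairs the gene with the higher FPKM changed, from Il6st, Ifnar1 and Ifngr2 in WT to Il6ra, Ifnar2 and Ifngr1 in the knockouts. No knockout sample overlapped WT. Each of these genes had to differ between genotypes to be in the table, and no share over other gene pairs is given. The receptor chains themselves were not measured. The ratio of Csf2rb to Csf2ra, at 3.76 to 6.23 over the 6 samples, overlapped between Tnfr1-/- and WT. Other ratios were chosen after their values were seen. Stat5b to Stat5a was 0.716 and 0.704 in WT, and 3.11 and 2.93 in Tnfr1-/- and 2.87 and 1.94 in Tnfr2-/-. Il18bp to Il18 was 0.0481 and 0.0457 in WT, and 2.72 and 3.33 in Tnfr1-/- and 1.31 and 1.02 in Tnfr2-/-. Il1rn to Il1a was 1.45 and 1.48 in WT and between 43.3 and 226 in the knockouts, again without overlap with WT. With 2 samples against 2 an exact test cannot go below p = 0.333, so no test of a ratio is given.

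**Figure D3:**
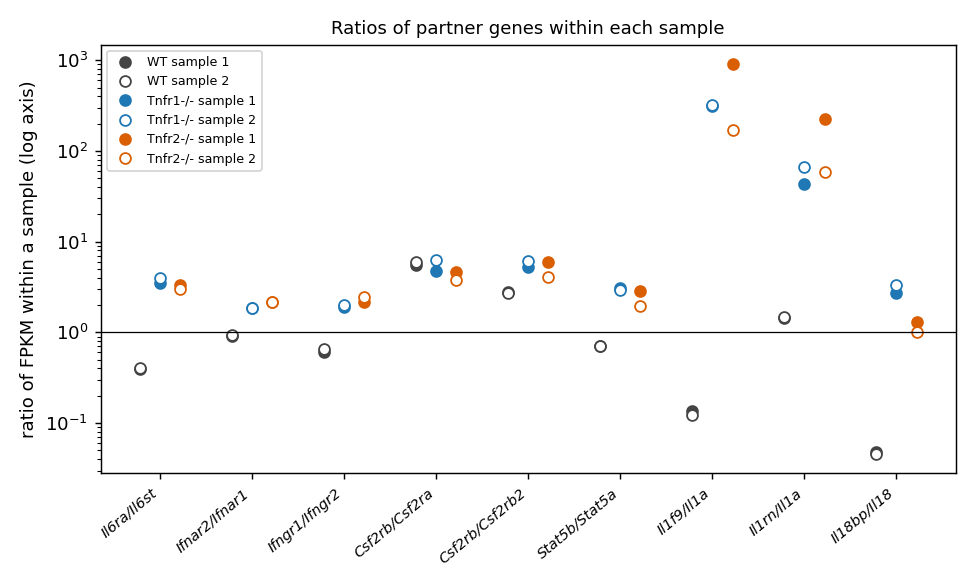
Ratio of FPKM of 9 gene pairs within each sample on a log axis; filled and open circles are samples 1 and 2 of WT (grey), Tnfr1-/- (blue) and Tnfr2-/- (orange), and the line marks a ratio of 1. WT lies below 1 and the knockouts above 1 for Il6ra/Il6st, Ifnar2/Ifnar1, Ifngr1/Ifngr2, Stat5b/Stat5a, Il1f9/Il1a and Il18bp/Il18.

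Between the knockouts, Tnfr2-/- against Tnfr1-/- sets the loss of one receptor against the loss of the other, so a difference can lie with either knockout. WT values do not enter the change itself, but they enter its SE and adjusted p, because the 3 genotypes share one estimate of the spread. The SD between replicates of the 45 genes was 0.070 in WT, 0.19 in Tnfr1-/- and 0.24 in Tnfr2-/-. With only the 2 knockouts in the model, 0 of the 45 genes passed. Of the 45 genes 2 passed (4.44%), against 1.45% of the whole table (0.842% higher and 0.610% lower), and 15 had an unadjusted p under 0.05, as did 1962 of all 8191 genes. Il7r, the alpha chain for interleukin-7 and a gene of lymphocytes, was at 18.8 FPKM in both WT samples, 26.5 and 40.4 FPKM in Tnfr1-/-, and 7.74 and 4.69 FPKM in Tnfr2-/-. Tnfr1-/- was highest, Tnfr2-/- lowest, and the 3 genotypes did not overlap. The log2 change was -2.26 (SE 0.28, adjusted p = 0.0384, and 0.0168 to 0.165 over the alternative settings). Against WT it was -1.49 (SE 0.28, adjusted p = 0.00467) in Tnfr2-/- and 0.77 (SE 0.28, adjusted p = 0.0438) in Tnfr1-/-, and after median-ratio scaling -0.57 (adjusted p = 0.179) and 1.85 (adjusted p = 0.00513). The rise in Tnfr1-/- lost its call without WT sample 1 (adjusted p = 0.147), WT sample 2 (adjusted p = 0.145) or Tnfr1-/- sample 2 (adjusted p = 0.191). The 3 listed T cell markers of 8 summed to 37.6 to 43.0 FPKM in Tnfr1-/- and 20.1 to 22.9 FPKM in Tnfr2-/-. Among them Cd3g was at 16.3 and 23.5 FPKM in Tnfr1-/- against 5.96 and 8.80 FPKM in Tnfr2-/-. Of the B cell and plasma cell genes, Jchain was at 1447 and 879 FPKM in Tnfr1-/- against 2186 and 2035 FPKM in Tnfr2-/-, and Cd79a went the other way, at 192 and 149 FPKM against 83.6 and 142 FPKM, neither past the threshold. The part of these lymphocyte markers in the Il7r difference was not tested.

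Il10ra, the ligand-binding chain for the anti-inflammatory interleukin-10, was at 42.9 and 47.2 FPKM in WT, 36.0 and 35.9 FPKM in Tnfr1-/-, and 56.7 and 69.7 FPKM in Tnfr2-/-. WT lay between the knockouts and no genotypes overlapped. The log2 change in Tnfr2-/- against Tnfr1-/- was 0.79 (SE 0.12, adjusted p = 0.0487, and 0.0309 to 0.173 over the alternative settings), so the gene stood at the edge of the threshold. With each sample left out in turn, both Il10ra and Il7r passed only without Tnfr2-/- sample 1 and lost the call without any of the other 5, at changes of 0.64 to 0.93 and -2.57 to -1.95 over the 6 fits.

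Several genes missed the threshold narrowly on the deposited scale. Il27ra, the interleukin-27 receptor, was at 4.09 and 3.83 FPKM in WT, 7.55 and 8.71 FPKM in Tnfr1-/-, and 3.39 and 4.51 FPKM in Tnfr2-/-, so that Tnfr1-/- stood above the other two. Its log2 change in Tnfr2-/- against Tnfr1-/- was -0.89 (SE 0.15, adjusted p = 0.0546). The changes of Cish (-0.81, adjusted p = 0.0557), Jak3 (-0.59, adjusted p = 0.0656) and Csf1r (0.91, adjusted p = 0.0696) came next among those over 1.5-fold. The groups overlapped for none of them, and no share over all genes is given for this. With median-ratio size factors Il27ra (-1.05, limma adjusted p = 0.0274), Cish (-0.98, adjusted p = 0.0444) and Jak3 (-0.74, adjusted p = 0.0250) passed as lower. Csf1r (0.76, adjusted p = 0.0750) did not pass. Il4ra, the receptor of interleukin-4, was at 23.6 and 29.8 FPKM in Tnfr1-/- and 18.2 and 18.5 FPKM in Tnfr2-/-, with a change of -0.51 (adjusted p = 0.0976). It passed against WT (36.2 and 39.0 FPKM) only in Tnfr2-/-, at -1.0, but after median-ratio scaling this was -0.038 and the change in Tnfr1-/- was 0.62, past the threshold. For the remaining genes the knockouts did not differ past the threshold, which does not show that they were alike: Il18, for example, had a change of 0.67 (SE 0.20, adjusted p = 0.136).

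**Figure D4:**
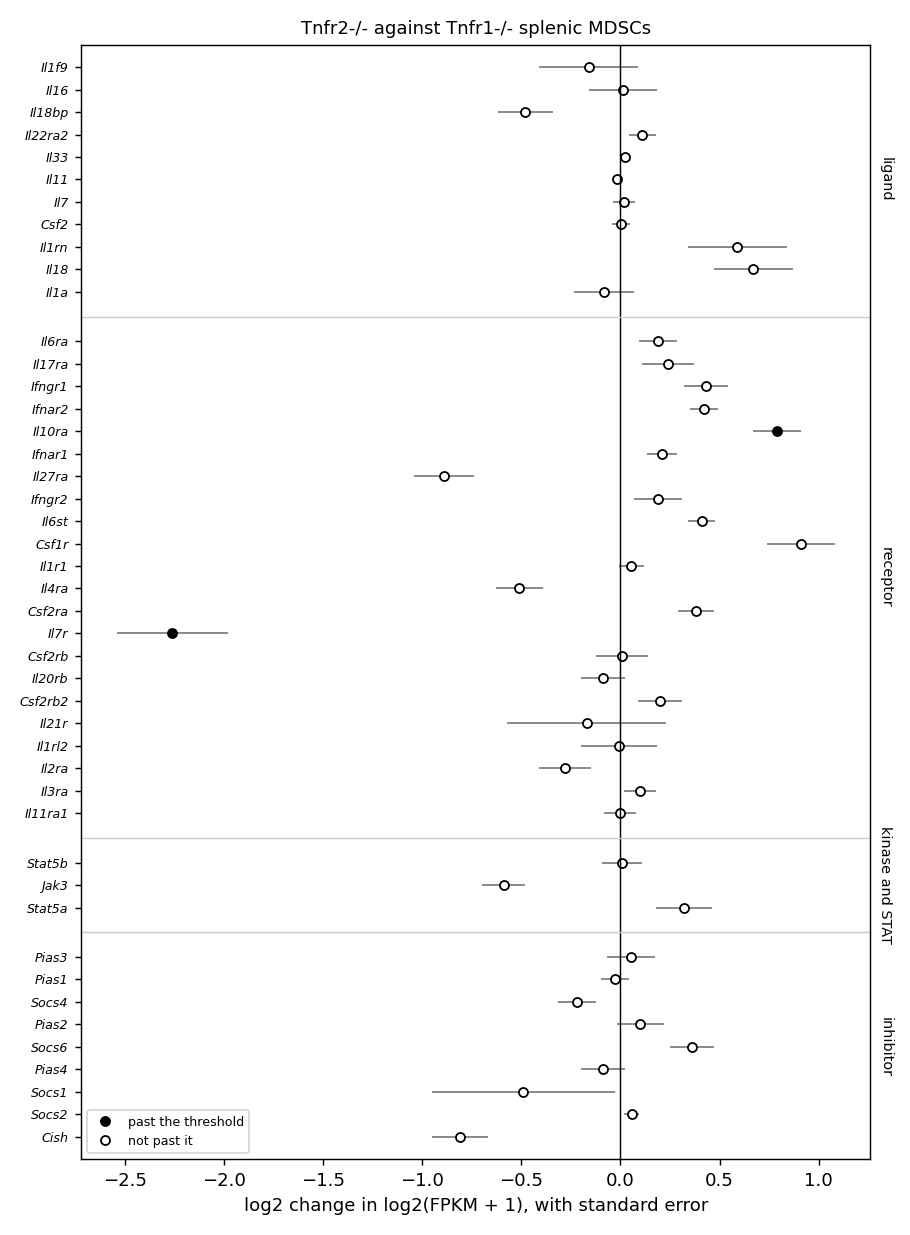
Log2 change in log2(FPKM + 1) of each of the 45 genes in Tnfr2-/- against Tnfr1-/-, with standard errors; filled circles passed the threshold and open circles did not. Il7r at -2.26 and Il10ra at 0.79 are the only filled circles.

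Other genes of the same pathways, from a list of 81, were described for comparison, and 39 of them were in the table. In Tnfr2-/- against WT 10 were higher and 18 lower (71.8%, against 70.7% of the whole table), in Tnfr1-/- against WT 10 were higher and 20 lower (76.9%, against 74.8%), and none of the 39 passed between the knockouts by limma, where 9 had an unadjusted p under 0.05. With median-ratio size factors 15 of the 39 were higher and 9 lower in Tnfr2-/- (21.8% and 21.0% in the whole table). In Tnfr1-/- 16 were higher and 8 lower (23.3% and 22.1%). That is 61.5% of the 39 in each knockout, against 42.8% and 45.4% of the whole table, and no set test was run. Csf3r, the granulocyte CSF receptor, was at 9.99 and 8.07 FPKM in WT, 294 and 454 FPKM in Tnfr1-/-, and 424 and 286 FPKM in Tnfr2-/-. It was left out of the 45 genes, and is counted both among these 39 and as a granulocyte marker. Lifr, which pairs with gp130, was at 0.441 and 0.517 FPKM in WT and between 2.79 and 3.23 FPKM in the knockouts, while Epor, the erythropoietin receptor, was at 7.89 and 8.96 FPKM in WT and between 0.183 and 0.614 FPKM in the knockouts. Of the 7 listed textbook STAT targets all passed in both knockouts on the deposited scale, 2 as higher and 5 as lower, where 70.7% and 74.8% of the whole table passed, so this count is no result about STAT targets. Mcl1, which protects cells from death, was at 84.7 and 82.4 FPKM in WT and between 378 and 498 FPKM in the knockouts, and the transcriptional repressor Bcl6 was at 4.74 and 4.12 FPKM in WT and between 21.6 and 31.7 FPKM. In contrast Bcl2l1, another survival gene, was at 23.2 and 23.0 FPKM in WT and between 2.34 and 3.27 FPKM in the knockouts, and the cell cycle gene Ccnd1 was at 16.9 and 16.8 FPKM and between 1.28 and 2.20 FPKM. After median-ratio scaling 2 of the 7 were higher in each knockout, and 3 were lower in Tnfr2-/- and 2 in Tnfr1-/-. On that scale 42.8% of the whole table passed in Tnfr2-/- and 45.4% in Tnfr1-/-. Ptpn2, a phosphatase that switches off JAKs and STATs, was at 22.1 and 24.4 FPKM in WT and between 3.29 and 3.86 FPKM in the knockouts.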

How the data were processed

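MDSC RNA of 6 samples (3 genotypes, 2 samples each, taken from the sample titles) was analysed. The authors sequenced single-end reads of 50 bases and deposited FPKM per gene. FastQC, edgeR and mm10 are named in the submitters' processing notes, and the aligner is not given in the sources used here. The authors also deposited a p-value per gene, which was not used. Depth is unknown, so no counting interval is given, and the replicate samples may differ technically as well as biologically. Samples have the same numbers across genotypes, but their deviations correlated by only 0.0217 to 0.0462.

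log2(FPKM + 1) of all 8191 genes was fitted with limma 3.58.1 in R 4.3.3 (one model, eBayes with trend, two-sided, Benjamini-Hochberg adjustment over all genes). Genes past an adjusted p of 0.05 and a fold change of 1.5 were called, and the fold change on this scale is understated for low genes. The 45 genes, lists and tests were chosen with earlier results of these data known. The genes named are the JAK, STAT, SOCS and PIAS genes, those of the interleukin-6 and GM-CSF receptors, receptor pairs and, per comparison, the 6 largest rises and falls that passed without overlap, and others were named after their values were seen. Shared 50-base windows and distances come from GENCODE M21 (GRCm38). Alternatives were pseudocount 0.1, a mean of at least 1 FPKM, only 2 genotypes, quantile normalization, a replicate block, no fold threshold, median-ratio size factors, leaving out each sample and an eBayes fit without the trend. Python 3.11.15, NumPy 2.4.6 and pandas 2.3.3 were used for the other steps.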

Additional observations from a re-analysis of the deposited data

Results flagged for a closer look

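Il7r and Il10ra were singled out because Tnfr2-/- and Tnfr1-/- differed past the threshold in a test of the difference itself. The log2 change in Tnfr2-/- against Tnfr1-/- was -2.26 (limma adjusted p = 0.0384) for Il7r, lower in both Tnfr2-/- samples than in both Tnfr1-/- samples. For Il10ra it was 0.79 (limma adjusted p = 0.0487), higher in both Tnfr2-/- samples than in both Tnfr1-/- samples. Neither gene passed with only 2 genotypes in the model, with the replicate block or without the trend, so both calls depend on the model.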

How the results depend on the processing

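Against WT the number of the 45 genes past the threshold stayed within 1.5 times (27 to 44 in Tnfr2-/- and 28 to 44 in Tnfr1-/- over the settings, 33 and 37 as reported), but the scale decided the balance of directions. The median log2 change of the 45 genes in Tnfr2-/- was -0.91 with pseudocount 0.1, -0.032 with quantile normalization and -0.015 with median-ratio size factors. In Tnfr1-/- it was -0.95 with pseudocount 0.1, -0.87 with a mean of at least 1 FPKM, -0.057 with quantile normalization and -0.040 with median-ratio size factors, and between the knockouts it turned to -0.012 under the median-ratio scaling. Among genes with an adjusted p under 0.05 on either scale, the direction in Tnfr2-/- against WT reversed, with median-ratio and quantile scaling, for Csf1r (0.40 and 0.42), Ifngr2 (0.57 and 0.46), Il6st (0.45 and 0.26), Pias2 (0.39 and 0.30), Stat5a (0.36 and 0.20) and Il27ra (0.75 and 0.71, from -0.012), with median-ratio alone for Il1rn (0.082) and with quantile alone for Il33 (0.053). In Tnfr1-/- against WT it reversed for Ifngr2 (0.52 and 0.44), Il10ra (0.80 and 0.69), Il4ra (0.62 and 0.46) and Pias2 (0.41 and 0.27), and with median-ratio alone for Il6st (0.17) and Stat5a (0.16).

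Between the knockouts 1.45% of the whole table passed as reported, 2.91% with quantile normalization and 2.54% with median-ratio size factors. Shares for the other settings are not given. Of the 45 genes 2 passed as reported and 6 with a mean of at least 1 FPKM. With quantile normalization 6 passed (13.3%), and with median-ratio size factors 5 (11.1%). The count was 0 with only 2 genotypes in the model, 0 with the replicate block and 0 without trend. Leaving out a sample gave 0 to 6 (6 without Tnfr2-/- sample 1), a lone sample being assumed to vary like the others. Of the 39 other pathway genes 0 passed as reported, 1 with a mean of at least 1 FPKM, 1 with median-ratio size factors, 1 with quantile normalization and 0 to 2 with a sample left out. The causes were not tested. Against WT, leaving out Tnfr2-/- sample 2 also ended the Il1r1 call in Tnfr2-/- (-0.58). With the replicate block 33 of the 45 genes passed in Tnfr2-/- and 36 in Tnfr1-/- against WT. The numbers do not pair the samples, so a call lost under the block is not a weaker effect. The lack of counts limits what can be said of genes under 1 FPKM.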
